A study of Homo sapiens with 6 samples.

Results

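The translation initiation factors (eIF) and elongation factors (eEF) of human cells were followed in RNA that co-purified with the RNA-binding protein Staufen1 (Stau1). Members were taken from the symbols of the array table, as every symbol that starts with EIF or EEF, leaving out the EIF2AK kinases. The rule used no measured value and gave 62 members among 37879 targets. HEK293T cells, an established line of human kidney origin, were used throughout. All cells were held in prometaphase with the microtubule poison nocodazole (50 ng/ml, 15 h), and all precipitations used anti-FLAG antibody. The 3 control IPs came from cells that had received empty vector, and the 3 Stau1 IPs from cells that had received a plasmid for Stau155-FLAG, a tagged Stau1 isoform. The tagged protein was thus transiently expressed in cells that also hold their own Stau1, and no control expressed another FLAG protein. Each IP was read on 1 array of the Illumina HumanWG-6 BeadChip type, whose signal is a mean intensity of the beads that carry a target's probe or probes. The paper counts more probe sets on this array type than the 37879 targets here, so a target may combine several probes. Whether the 3 IPs of a group came from separate cultures is not given in the sources used here, so p-values measure the spread between these arrays, which may be technical.

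Translation begins when eIF2, a trimer loaded with GTP, brings the initiator tRNA to the small ribosomal subunit, and eIF2B recharges eIF2 for the next round. eIF3 is a large scaffold on that subunit, while eIF4F (the cap-binding eIF4E, the scaffold eIF4G and the helicase eIF4A) recruits the mRNA. eIF1, eIF1A, eIF5 and eIF5B then act in scanning, start codon choice and subunit joining. In elongation, eEF1A delivers aminoacyl-tRNA, the eEF1B subunits recharge eEF1A, and eEF2 moves the ribosome along. Protein synthesis is known to slow in mitosis. The mRNAs of several of these factors start with a run of pyrimidines, called a 5′ terminal oligopyrimidine (TOP) start, through which mTOR signaling controls their translation.

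A pyrimidine start is a feature that the symbol rule did not use. It was defined as C at an annotated RefSeq start (GRCh38.p14) followed directly by at least 4 bases that are C or T, read on the gene's strand only. Among the 50 members that matched a gene of the RefSeq table, 11 (22%) had such a start, against 4.07% of all 35116 starts and 5.14% of all 27305 genes in that table. The 3 below belong to transcripts called higher without the arrays numbered 2, of which EEF1A1 turned negative under other scalings. Each line gives 10 bases before and 20 bases from the annotated start, with the pyrimidine run in capitals.
EIF2S3, chrX:24054946-24054975, plus strand: gatttccttcCTCTTTTggcaacatggcgg
EIF3F, chr11:7987327-7987356, plus strand: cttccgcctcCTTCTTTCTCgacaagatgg
EEF1A1, chr6:73521013-73521042, minus strand: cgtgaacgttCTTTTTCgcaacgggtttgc
These 4 have a run too, and their signals were not called in either direction, though EIF4A2 and EIF3D were called lower under other scalings.
EIF4A2, chr3:186783567-186783596, plus strand: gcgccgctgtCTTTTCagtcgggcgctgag
EEF2, chr19:3985444-3985473, minus strand: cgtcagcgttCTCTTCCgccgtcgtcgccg
EIF3D, chr22:36529147-36529176, minus strand: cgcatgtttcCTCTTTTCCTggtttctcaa
EEF1B2, chr2:206159885-206159914, plus strand: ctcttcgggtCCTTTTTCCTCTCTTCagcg
For contrast, the start of EIF4H, the member with the highest difference without the arrays numbered 2, holds no such run.
EIF4H, chr7:74174346-74174375, plus strand: ctcgctcaccctggttcctctcggagcgga
The other starts with a run belong to EIF2A, EIF3K, EIF3M and EIF4B. EEF1B2 has a run at 1 of its 2 annotated starts. A match is a description of the letters at an annotated start, not of the start used in these cells.

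A target counted as detected on an array at a deposited detection p under 0.05. This p did not follow the deposited signal of a target strictly, so a target that misses the threshold need not be near background. Of the 62 members, 50 were detected on all 6 arrays and 6 on none. The members detected per array numbered 51, 56 and 53 in control IP 1, 2 and 3, and 54, 53 and 54 in Stau1 IP 1, 2 and 3. Detected on no array were EEF1E1, EIF1AY, EIF3IP1, EIF4E, EIF4E1B and EIF5AL1. EIF4E, the cap-binding protein itself, had signals of 119 to 136. EEF1E1, a scaffold partner of tRNA synthetases, had signals of 388 to 1098 and still missed the detection threshold. EIF4G1 and EEF1D each missed it on 1 control array, EIF1AD on some arrays, EIF2C4 and EIF4EBP3 likewise, and EIF5A2 passed it on 1 array.

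Across the whole array, 11635 to 13054 targets were detected per array, and 9884 on all 6. The median signal was 87.9 to 102 against a negative control median of 77.6 to 89.6. STAU1 had signals of 2499, 3246 and 2758 in the control IPs and 2845, 1857 and 3130 in the Stau1 IPs, and since its probe's place in the transcript is not known here, it does not check the labels. Of 6 HEK293T markers, 5 were detected on all 6 arrays (PAX2 was not), as were all 5 mitotic markers, while HBB, PTPRC and ALB were detected on none. The array labelled Stau1 IP 2 stood apart from Stau1 IP 1 and 3. Over the members detected on all 6 arrays, its normalized signals had a Pearson correlation of 0.953 with both, against 0.998 between Stau1 IP 1 and 3 and 0.982 with control IP 3. Control IP 1 and 3 were less alike than Stau1 IP 1 and 3, at 0.9825. The array labelled control IP 2 correlated at 0.989 with Stau1 IP 1 and 0.988 with Stau1 IP 3. With control IP 3 it correlated at 0.988 as well. All arrays share their probes, so these correlations are a description. The called members are therefore given both by the labels and without the arrays numbered 2, and these arrays are shown singly.

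By the labels, with 3 control IPs against 3 Stau1 IPs, no member was enriched or depleted. The criterion, a fold above 2.5 with an unadjusted p under 0.05, was met by 1 target of 37879 (0.00264%) for enrichment and by 0% for depletion. With limma and a Benjamini-Hochberg adjusted p under 0.05 at any fold, 0 of 62 members were higher and 0 lower, where 0% of all targets were higher and 0.00264% lower. At an unadjusted p under 0.05, 12 members passed, as did 3337 of all targets, and the methods' t-test called 0 members after adjustment. The median log2 difference, Stau1 IP minus control IP, was -0.12 over the members and 0.0034 over all targets. Over the 50 detected members it was -0.14, with 20 above 0, against 0.00092 over the 9884 detected targets. Levels in the cells and binding to Stau1 cannot be told apart in these values, which come from the precipitates alone.

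Although no member passed the adjusted test by the labels, a set of them lay apart between the groups. All 3 Stau1 IP signals were below all 3 control IP signals, on the normalized scale, for 14 members (22.6%), where 7.58% of all targets were so placed. Among targets detected on all 6 arrays the count was 12 of 50 members (24%) against a background of 13.2%. The reverse order held for 3 members (4.84%) against 6.77% of all targets, or 3 of 50 (6%) against 9.78% of detected targets. Those above were EIF4A1, EIF4EBP1 and EIF5A, of which EIF4EBP1 was also apart in raw signal. Those below were EIF1AX, EIF1B and EIF5B of the scanning factors, EIF3E, EIF3H and EIF3J of eIF3, EIF4A2, EIF4A3, EIF4G2, EIF4G3 and EIF4E1B of the eIF4 group, EIF5A2, and EEF1B2 and EEF2 of the elongation factors. In raw signal EIF4A3, EIF4G3, EIF4E1B, EIF5A2 and EEF2 overlapped, and EIF4E1B and EIF5A2 were close to the negative control median. With the arrays numbered 2 exchanged, 11 members (17.7%) lay below and 11 above, where 10.6% and 8.98% of all targets did. Among targets detected on all 6 arrays these were 10 of 50 (20%) below and 11 of 50 (22%) above, against 18.4% and 16.5%.

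EIF4A2, a paralog of the eIF4A helicase, had the smallest p by the labels. Its signals were 4236, 3884 and 3618 in the control IPs and 2622, 2438 and 2552 in the Stau1 IPs. The groups were apart and each was tight, with normalized log2 means of 12.04 ± 0.14 and 11.41 ± 0.09 (SD, n = 3 each). The difference was -0.64 (SE 0.08), with an adjusted p of 0.161 by limma. Its near relative EIF4A1, the major eIF4A, had signals of 46400, 44799 and 38593 in the control IPs against 36027, 48204 and 44989, and a difference of 0.09 (SE 0.05, adjusted p 0.706). EIF4G2, an eIF4G relative that lacks the eIF4E-binding part, had 9542, 9591 and 8626 in the control IPs and 5912, 3905 and 6452 in the Stau1 IPs. It had the most negative difference of the members by the labels, -0.79 (SE 0.20, adjusted p 0.331), but 0.034 with the arrays numbered 2 exchanged.

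Without the arrays numbered 2, Stau1 IP 1 and 3 were compared with control IP 1 and 3 in the same limma procedure, adjusted over all 37879 targets. The values had been normalized over all 6 arrays with control IP 2 as the reference, so they still depend on that array. In this comparison 8 members were higher (12.9%), against 2.9% of all targets, and 6 were lower (9.68%), against 2.06%. Read against targets detected on all 6 arrays, a choice made after the data had been seen, 8 of 50 members (16%) were higher where 8.48% of the targets were, and 5 of 50 (10%) were lower where 6.87% were. Higher were EIF4H, EIF2S3, EIF4EBP2, EEF1G, EEF2K, EIF4E3, EIF3F and EEF1A1. Lower were EEF1D, EIF3G, EIF4G2, EIF2B4, EIF2B2 and EIF4A3. At a fold above 2.5 with an unadjusted p under 0.05, EIF4H was enriched, where 0.549% of all targets were, and no member was depleted, where 0.037% were. The median difference was -0.12 over the members and -0.0046 over all targets. Over the detected members it was -0.21, with 18 of 50 above 0, against -0.033 over all detected targets. Each group holds 2 arrays here, and with Stau1 IP 1 or Stau1 IP 3 also left out, which leaves a lone Stau1 IP, 0 members were called. In simulated arrays, differences on the normalized scale understated folds: 200 targets changed 4-fold came back at medians of 1.66 and -1.22 (log2). This need not hold for bright members. EEF1G, for example, differed by 0.81 without the arrays numbered 2, but by 0.53 with median centring.

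**Figure D1:**
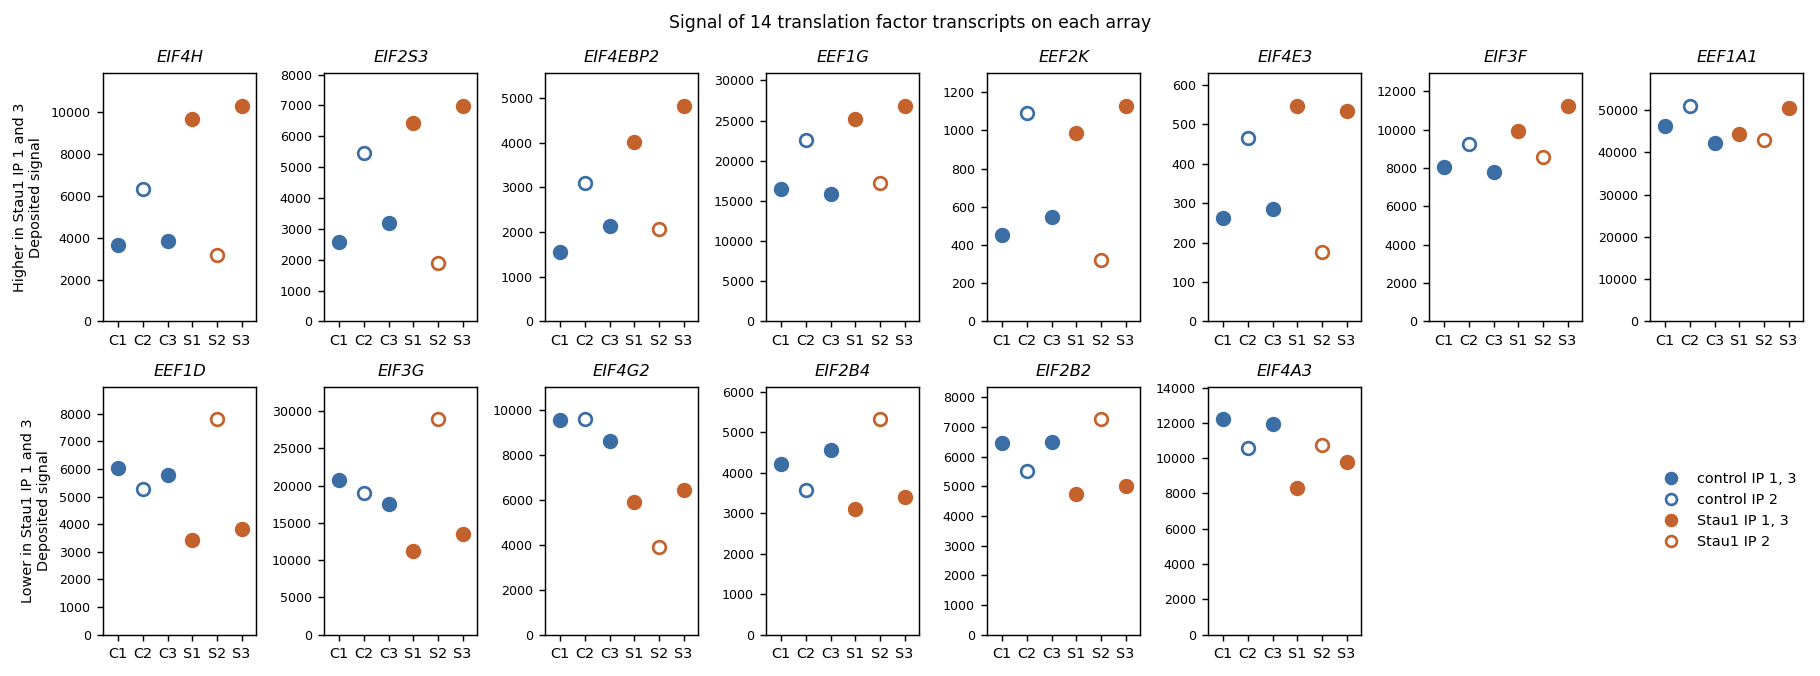
Deposited signal (linear axis from 0) of the 14 members called without the arrays numbered 2, on control IP 1 to 3 (C1 to C3, blue) and Stau1 IP 1 to 3 (S1 to S3, orange), with 1 point per array and open points for the arrays numbered 2. For EIF4H the filled orange points lie at 9694 and 10318 and the filled blue points at 3637 and 3851, while the open orange point lies at 3171, below them all.

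Among the eIF4 factors, the mRNAs of a helicase helper and of cap-binding regulators were higher in Stau1 IP 1 and 3. EIF4H, which stimulates the eIF4A helicase, had signals of 3637, 6353 and 3851 in control IP 1, 2 and 3 and of 9694, 3171 and 10318 in Stau1 IP 1, 2 and 3. Stau1 IP 2 lay below every control, so the groups overlapped by their labels. The difference was 1.37 (SE 0.04, adjusted p 0.0114), a fold of 2.59, without the arrays numbered 2, and 0.61 (SE 0.51, adjusted p 0.847) by the labels. EIF4EBP2 encodes a repressor that holds eIF4E away from eIF4G. Its signals were 1546, 3094 and 2136 in the controls and 4027, 2075 and 4833 in the Stau1 IPs, a difference of 1.12 (SE 0.15, adjusted p 0.0446) without the arrays numbered 2 and 0.60 (adjusted p 0.743) by the labels. EIF4E3, an eIF4E relative, was dim, with 263, 466 and 285 in the controls and 547, 177 and 535 in the Stau1 IPs, and differed by 0.59 (SE 0.06, adjusted p 0.0259) without the arrays numbered 2 and 0.14 (adjusted p 0.957) by the labels. Under neqc the first value was 0.20 and lost its call. For EIF4EBP2 and EIF4E3, the array labelled Stau1 IP 2 sat with or below control IP 1 and 3.

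Lower in Stau1 IP 1 and 3 were EIF4G2 (signals above), by -0.57 (SE 0.04, adjusted p 0.0205), and EIF4A3. EIF4A3 encodes the helicase of the exon junction complex, which marks spliced mRNAs. Its signals were 12223, 10576 and 11926 in the controls and 8323, 10768 and 9780 in the Stau1 IPs, a difference of -0.40 (SE 0.04, adjusted p 0.0315), and of -0.27 (adjusted p 0.49) by the labels. Its call was lost under neqc, with log2 of the signal plus 50, with eBayes trend, and when only the 4 arrays were normalized, where the value was -0.25. EIF4E2, an eIF4E relative that takes part in repression, had 6287, 5268 and 4204 in the controls and 2642, 5908 and 3118 in the Stau1 IPs. Its difference of -0.90 (95% interval -1.47 to -0.32, adjusted p 0.13) was the most negative of the family and did not pass. With log2 of the signal plus 50, a filter on detection or eBayes trend, EIF4E2 was called lower. EIF4A2 did not pass either (-0.68, adjusted p 0.0632). With log2 of the signal plus 50, quantile normalization, median centring or the filter on detection, EIF4A2 was called lower. The scaffolds EIF4G1 (1015, 1732 and 1790 against 1349, 1543 and 1832) and EIF4G3 had differences of 0.04 (95% interval -0.73 to 0.80) and -0.27 (-0.59 to 0.05). EIF4B, a further helicase cofactor, differed by 0.20 (-0.14 to 0.53). EIF4EBP1, sister of EIF4EBP2, had 383, 521 and 345 in the controls and 522, 754 and 619 in the Stau1 IPs. All its Stau1 IP signals exceeded the controls after normalization, with differences of 0.32 (adjusted p 0.171) without the arrays numbered 2 and 0.46 (adjusted p 0.573) by the labels, but -0.036 with those arrays exchanged. EIF4ENIF1, which carries eIF4E into the nucleus, differed by -0.47 (adjusted p 0.0774). In all, 3 of the 16 eIF4 members were higher and 2 lower, and the 12 detected on all arrays split into 6 above and 6 below 0. Over all targets 2.9% were higher and 2.06% lower, and over detected targets 8.48% and 6.87%.

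Of the 8 members grouped with eIF2 and its exchange factor eIF2B, EIF2S3 was higher, EIF2B2 and EIF2B4 were lower, and 5 did not pass. Over all targets 2.9% were higher and 2.06% lower. The 8 include EIF2A, which is a subunit of neither complex and differed by -0.47 (95% interval -1.55 to 0.61) without the arrays numbered 2. EIF2S3, the eIF2 subunit that binds GTP and the initiator tRNA, had signals of 2565, 5464 and 3196 in the controls and 6417, 1898 and 6993 in the Stau1 IPs. The arrays numbered 2 were placed opposite to their labels, with control IP 2 near Stau1 IP 1 and 3 and Stau1 IP 2 the lowest of all. Without them the difference was 1.13 (SE 0.10, adjusted p 0.0248), a fold of 2.19, and by the labels it was 0.30 (SE 0.55, adjusted p 0.945). EIF2S2, another eIF2 subunit, had 709, 551 and 562 in the controls against 370, 605 and 388. Its difference of -0.81 (adjusted p 0.0669) did not pass. With log2 of the signal plus 50, quantile normalization, median centring, a filter on detection or eBayes trend, EIF2S2 was called lower. The same held when only the 4 arrays were normalized. EIF2S1, whose phosphorylation shuts down initiation under stress, differed by 0.41 (95% interval -0.14 to 0.96). EIF2B4 and EIF2B2, subunits of the regulatory part of eIF2B, were both lower. EIF2B4 had 4207, 3572 and 4559 in the controls and 3098, 5326 and 3409 in the Stau1 IPs, a difference of -0.51 (SE 0.05, adjusted p 0.0262), and of -0.14 (adjusted p 0.937) by the labels. EIF2B2 had 6456, 5529 and 6504 against 4727, 7267 and 5020, a difference of -0.45 (SE 0.04, adjusted p 0.0224), and of -0.17 (adjusted p 0.882) by the labels. For both, Stau1 IP 2 was the highest array and control IP 2 the lowest control. The calls of both were lost under neqc and with eBayes trend. EIF2B1 and the catalytic EIF2B5 differed by -0.10 (-0.32 to 0.12) and -0.23 (-0.75 to 0.28).

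Of the eIF3 subunits, EIF3F was higher and EIF3G lower. EIF3F had signals of 8065, 9273 and 7788 in the controls and 9930, 8553 and 11256 in the Stau1 IPs, a difference of 0.43 (SE 0.03, adjusted p 0.0183) without the arrays numbered 2 and 0.24 (adjusted p 0.716) by the labels. With median centring the first value was 0.25, and the call was lost there, with log2 of the signal plus 50 and with eBayes trend. EIF3G, which also takes part in scanning, had 20674, 18932 and 17476 against 11168, 28926 and 13440, a difference of -0.57 (SE 0.07, adjusted p 0.0361), and of -0.20 (adjusted p 0.933) by the labels. The array labelled Stau1 IP 2 was above all 5 others for EIF3G. Of the 13 eIF3 symbols detected on all 6 arrays, 11 had a negative difference, as had 32 of the 50 detected members and 5374 of the 9884 detected targets. The eIF3 median was -0.35 without the arrays numbered 2, beside -0.033 over all detected targets, and -0.17 by the labels. Under the other scalings of all 6 arrays 11 or 12 were negative, with medians from -0.53 with median centring to -0.23 under neqc. All of these included the arrays numbered 2. When only the 4 arrays were normalized, differences were -0.39 for EIF3G, -0.47 for EIF3D, -0.72 for EIF3H and 0.52 for EIF3F. EIF3H was the most negative, with 4621, 3675 and 2930 in the controls and 2187, 2860 and 2154 in the Stau1 IPs. Its groups were apart by the labels, with differences of -0.65 (SE 0.21, adjusted p 0.453) on all 6 arrays and -0.84 (SE 0.24, adjusted p 0.2) without the arrays numbered 2. EIF3D, a cap-binding subunit, had 19576, 16417 and 23522 against 12945, 30143 and 13073, a difference of -0.66 (adjusted p 0.137). EIF3D and EIF3H were called lower with log2 of the signal plus 50. EIF3D was also called lower with median centring, a filter on detection or eBayes trend. EIF3E differed by -0.35 (-0.77 to 0.08) and the large scaffold subunit EIF3A by -0.31 (-1.09 to 0.48). EIF3C differed by -0.62 (adjusted p 0.0626), and since a near-identical copy of this gene exists, its probe may read both.

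**Figure D2:**
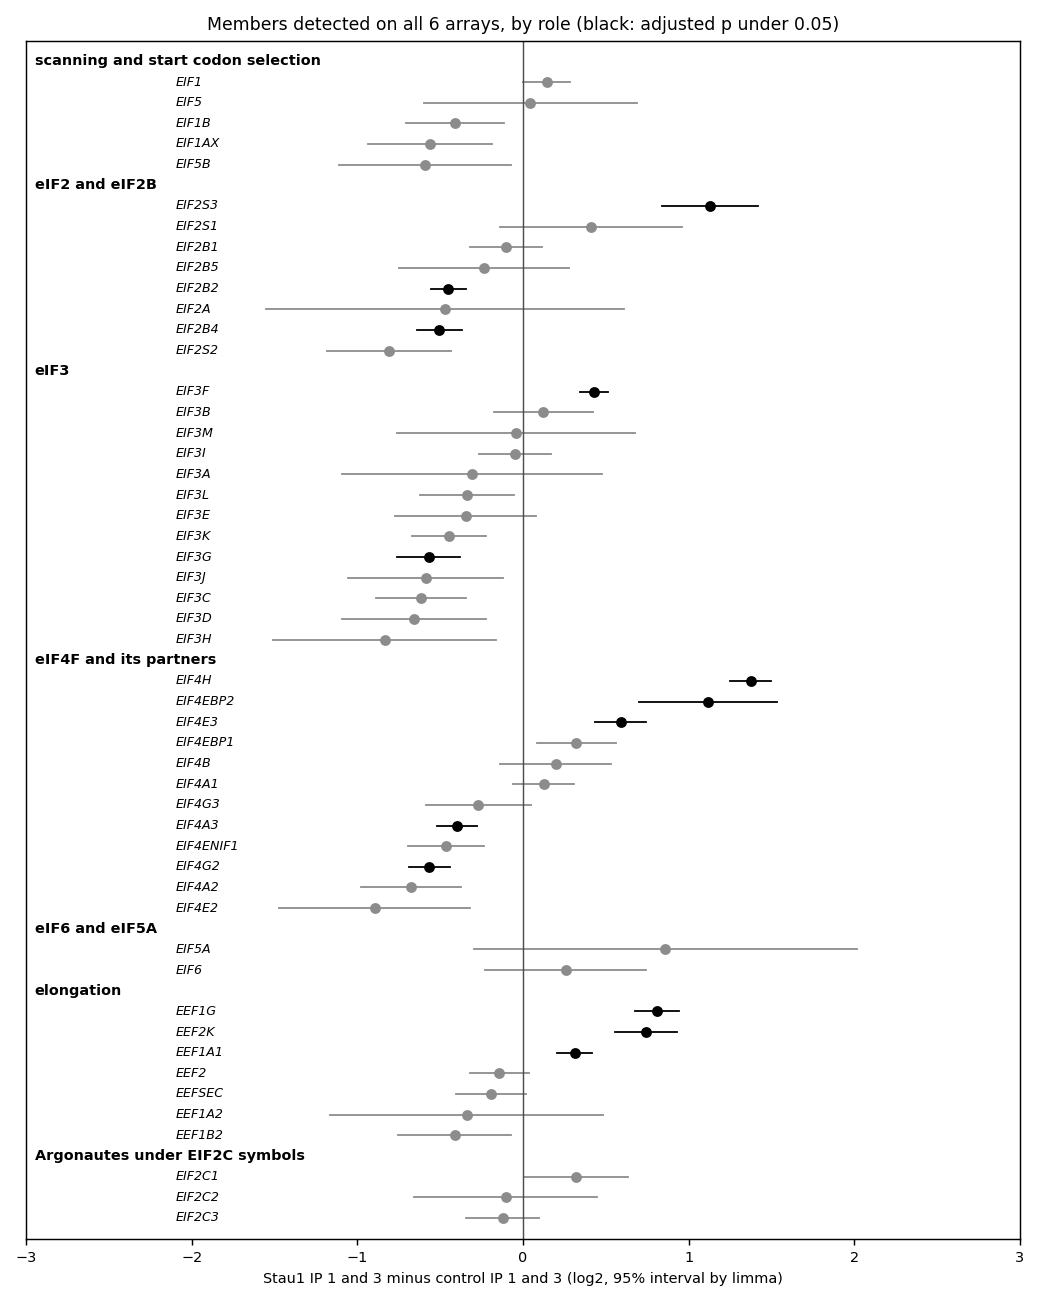
Difference of Stau1 IP 1 and 3 minus control IP 1 and 3 (log2 scale, points) with limma's 95% interval (bars) for the 50 members detected on all 6 arrays, grouped by role, in black where the adjusted p was under 0.05. Of the 13 eIF3 members 11 lie left of 0, and EIF4H lies farthest right at 1.37. The called EEF1D is not drawn because it was detected on 5 arrays.

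No scanning or subunit joining factor was called. EIF1AX had signals of 940, 983 and 766 in the controls and 570, 593 and 698 in the Stau1 IPs, so the groups were apart, with differences of -0.49 (SE 0.11, adjusted p 0.288) by the labels and -0.56 (SE 0.13, adjusted p 0.138) without the arrays numbered 2. EIF5B, the GTPase of subunit joining, was dim and differed by -0.59 (adjusted p 0.235), while EIF1B, a copy of EIF1, differed by -0.41 (adjusted p 0.16). EIF1 and EIF5, which act at start codon choice, differed by 0.14 (0.00 to 0.28) and 0.05 (-0.60 to 0.69). EIF1AY was detected on no array. EIF6, which keeps free large subunits apart from small ones, differed by 0.26 (-0.23 to 0.74). EIF5A, a factor that helps ribosomes over stalling sites and carries the amino acid hypusine, had signals of 10094, 23047 and 20844 in the controls and 22090, 29053 and 27556 in the Stau1 IPs. The groups were apart on the normalized scale, but control IP 1 was well below the other controls, and the difference of 0.66 (SE 0.32, adjusted p 0.672) by the labels did not pass. EIF5A has a near-identical copy, EIF5AL1, whose own target was detected on no array.

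Within the complex that recharges eEF1A, EEF1G was higher and EEF1D lower without the arrays numbered 2. EEF1G, a structural subunit of eEF1B, had signals of 16484, 22602 and 15841 in the controls and 25222, 17287 and 26864 in the Stau1 IPs. Without the arrays numbered 2 it was higher, by 0.81 (SE 0.05, adjusted p 0.0149), a fold of 1.75, which was 0.53 with median centring. By the labels it differed by 0.39 (adjusted p 0.801). EEF1D, an exchange subunit of the same complex, had 6014, 5287 and 5765 against 3416, 7808 and 3837 and was lower, by -0.75 (SE 0.03, adjusted p 0.0123), beside -0.32 (adjusted p 0.874) by the labels. The other exchange subunit, EEF1B2, had 9329, 8329 and 7338 against 6244, 7229 and 6292. Its groups were apart by the labels, with differences of -0.34 (SE 0.09, adjusted p 0.366) there and -0.41 (SE 0.12, adjusted p 0.209) without the arrays numbered 2. The array labelled Stau1 IP 2 was near control IP 1 and 3 for EEF1G and above every other array for EEF1D.

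EEF2K encodes the kinase that inactivates eEF2. Its signals were 452, 1090 and 546 in the controls and 988, 321 and 1130 in the Stau1 IPs, and the difference without the arrays numbered 2 was 0.74 (SE 0.07, adjusted p 0.0245), beside 0.12 (adjusted p 0.971) by the labels. Its substrate EEF2 had 24249, 25371 and 24437 against 18923, 24901 and 21996, a difference of -0.14 (95% interval -0.32 to 0.03). EEF1A1, the main eEF1A, had 46109, 51014 and 42253 in the controls and 44234, 42814 and 50500 in the Stau1 IPs. By the labels its difference was 0.10 (adjusted p 0.93). Its raw signals overlapped, and its call as higher (0.31, SE 0.04, adjusted p 0.0372) turned to -0.011 under neqc, -0.011 under quantile normalization and -0.061 under median centring. Pseudogenes of EEF1A1 are many, and its probe may read some of them. EEF1A2 and EEFSEC, which delivers selenocysteine, differed by -0.34 (-1.16 to 0.48) and -0.19 (-0.41 to 0.02). Of the 9 elongation members 3 were higher and 1 was lower. The shares were 2.9% and 2.06% over all targets, and 8.48% and 6.87% over targets detected on all 6 arrays.

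The symbols EIF2C1 to EIF2C4 are older names of the Argonaute proteins, which act in microRNA silencing and are no initiation factors. None was called. EIF2C1 had signals of 320, 656 and 430 in the controls and 532, 325 and 628 in the Stau1 IPs, a difference of 0.32 (0.01 to 0.63, adjusted p 0.28). EIF2C2 differed by -0.11 (-0.66 to 0.45), EIF2C3 by -0.12 (-0.34 to 0.10), and EIF2C4, near background, by 0.01 (-0.19 to 0.22).

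The arrays numbered 2 were placed singly against the other arrays, on the normalized scale. For all 8 members called higher, Stau1 IP 2 was nearer to control IP 1 and 3 than to Stau1 IP 1 and 3, and for 6 of them control IP 2 was nearer to Stau1 IP 1 and 3. Among all 1097 targets called higher, the shares were 83.8% and 60.4%. Of the 6 members called lower, Stau1 IP 2 was nearer to control IP 1 and 3 for 4 and control IP 2 nearer to Stau1 IP 1 and 3 for 3, where the shares over all 779 targets called lower were 68.4% and 46.5%. Over the 50 detected members, called or not, Stau1 IP 2 was nearer to control IP 1 and 3 for 62% and control IP 2 nearer to Stau1 IP 1 and 3 for 48%, beside 60.1% and 47.5% of all detected targets. Stau1 IP 2 also lay beyond both groups in many cases. It was the lowest of all 6 arrays for 6 of the 8 members called higher (75%), beside 31.6% of all targets called higher. For 4 of the 6 members called lower (66.7%) it was the highest, beside 42.1% of all targets called lower. Over the 50 detected members it was the lowest for 15 (30%) and the highest for 13 (26%), beside 25.2% and 29.8% of all detected targets. EIF4G2 kept to its labels on both arrays. For EIF4A3, Stau1 IP 2 was below control IP 1 and 3, but control IP 2 (10576) was nearer to Stau1 IP 1 and 3 and below Stau1 IP 2 (10768) in raw signal.

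With each array numbered 2 moved to the other group, 0 members were higher and 2 lower at an adjusted p under 0.05, where 0.573% of all targets were higher and 0.15% lower. The 2 were EIF2B4, at -0.53 (SE 0.06, adjusted p 0.0429), and EIF2B2, at -0.43 (SE 0.05, adjusted p 0.0337). These comparisons share arrays, so they are no independent support for each other. EIF4H differed by 1.22 in this grouping and did not pass.

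**Figure D3:**
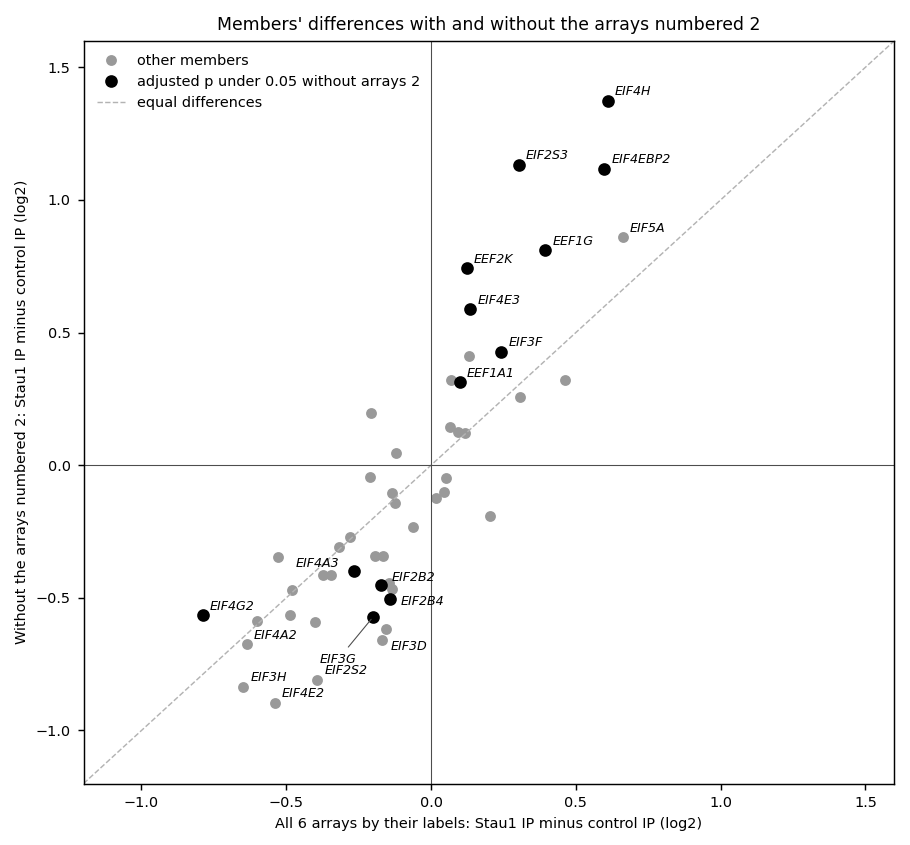
Difference of Stau1 IP minus control IP for the 50 members detected on all 6 arrays (log2 scale, 1 point per member), by the labels of all 6 arrays (horizontal) and without the arrays numbered 2 (vertical), in black where the adjusted p without those arrays was under 0.05. EIF4H lies at 0.61 and 1.37 and EIF2S3 at 0.30 and 1.13, above the dashed line of equal differences, while EIF4G2 lies at -0.79 and -0.57.

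Members with a pyrimidine start were found among both the higher and the not called transcripts. Without the arrays numbered 2, 3 of the 11 were higher and 0 lower, with 4 differences above and 7 below 0, a median of -0.14 and a range from -0.68 (EIF4A2) to 1.13 (EIF2S3). Over targets detected on all 6 arrays, 8.48% were higher and 6.87% lower. The counts depended on the scaling. With median centring EIF2S3 kept its call, EEF1A1 turned to -0.061 and EIF3F (0.25) lost its call. In that scaling EIF4A2 (-0.74) and EIF3D (-0.88) were called lower. Of the 39 matched members with no run, 5 were higher and 4 lower, with 16 above and 23 below 0, a median of -0.093 and a range from -0.90 to 1.37. EEF1D and EIF3G, both called lower, were not matched and are in neither set. Other unmatched members include EIF3A, EIF3E, EIF3H, EIF3L and EIF2S2. All 11 members with a run were detected on every array. The set with no run also holds members detected on no array, among them EIF4E, EIF4E1B and EIF5AL1. Its median is the value of EIF4E1B. The sets thus differ in detection too, and they were not tested against each other.

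Outside the symbol rule, 38 partners of these factors were read, among them poly(A)-binding proteins, release factors, eIF2 kinases, mTOR and its kinase targets, and mitochondrial factors. All 38 were on the array and 29 were detected on all 6 arrays. By the labels 0 were higher and 0 lower at an adjusted p under 0.05, and without the arrays numbered 2, 1 was higher and 1 lower, with a median of -0.027. In the latter comparison 2.9% of all targets were higher and 2.06% lower, so these counts were near the background. The higher one was DENR, whose protein acts in reinitiation and in recycling of the small subunit. Its signals were 915, 2917 and 1152 in the controls and 3728, 813 and 3781 in the Stau1 IPs, so the arrays numbered 2 were again placed opposite to their labels. Its difference was 1.62 (SE 0.10, adjusted p 0.0161), a fold of 3.08, without those arrays, 0.59 (SE 0.65, adjusted p 0.893) by the labels and 1.57 (SE 0.15, adjusted p 0.0273) with them exchanged. EIF2AK1, the heme-regulated eIF2 kinase, was the lower one, with 8481, 7056 and 8464 against 4857, 6663 and 5914 and a difference of -0.68 (SE 0.06, adjusted p 0.0244). By the labels EIF2AK1 differed by -0.48 (adjusted p 0.371). The calls of DENR and EIF2AK1 were both lost under neqc. FRAP1, which encodes mTOR, passed only with the arrays numbered 2 exchanged among these groupings (0.74, SE 0.08, adjusted p 0.0333).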

How the data were processed

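The authors hybridized RNA of 6 immunoprecipitates to Illumina HumanWG-6 v3 BeadChips and deposited BeadStudio's signal intensity of 37879 targets per array, without background subtraction or normalization, with the standard error between beads (an intensity), the bead count (median 41 per target) and a detection p-value. The number of arrays limits the precision.

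All further values were computed here with R 4.3.3, limma 3.58.1 and mgcv 1.9.3. The median signal of the 200 targets with detection p nearest 0.5 was subtracted as background. A variance stabilizing log2 transformation was fitted to the bead SD over 500 bins, without the lowest 33.3% of signals, and robust spline normalization with 10 knots used control IP 2 as its reference. lmFit and eBayes were run over all targets with Benjamini-Hochberg adjustment, without a filter on dim targets. The program that the authors used was not run, so this rebuilding is untested against it. Figures were drawn with Python 3.11.15 and matplotlib 3.10.9.

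Groups came from the sample titles. The members, partners, markers and named genes, and the fit without the arrays numbered 2, were chosen with earlier results of these data known. Genes were named from a list by role, plus up to 10 members with the largest rise and 10 with the largest fall among those called. Gene starts came from RefSeq (GRCh38.p14). In simulated arrays with 200 of 37879 targets changed 4-fold, limma recovered 98.5% by the labels with 10 false calls, and 90% without the arrays numbered 2 with 1 false call. The simulated arrays had correct labels, independent noise and no array set apart from its group. Their noise had the same size on all arrays, while in the real data Stau1 IP 1 and 3 were more alike than control IP 1 and 3. Their recovery rates and false calls therefore do not carry over to either comparison of the real arrays. Alternatives were neqc (offset 16), log2 of the signal plus 50, quantile normalization, median centring, a filter on detection, eBayes with trend, the replicate block, the methods' t-test, the exchange of the arrays numbered 2 and leaving out each array. Normalizing only the 4 remaining arrays, the counts over detected targets, an adjusted p at any fold with arrays exchanged or left out, and non-overlap shares and signs in the exchange, were added after the data had been seen. Once group means were removed, arrays with the same replicate number had correlations of -0.46, -0.78 and -0.38. Deviations within so small a group depend on each other, and the arrays numbered 2 lay opposite to their labels for many targets. These values therefore cannot show whether replicate numbers paired the samples. Every data column belonged to 1 sample. Total RNA was not analysed here.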

Additional observations from a re-analysis of the deposited data

How the results depend on the processing

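By the labels, 0 members were called under every alternative, except that 2 were lower with the arrays numbered 2 exchanged. Of all targets, 1 was enriched by the labels, with 3 under neqc, 5 with log2 of the signal plus 50, 2 with trend, 0 with the replicate block and 137 with the arrays numbered 2 exchanged, and 0 was depleted, with 7 under neqc and 7 in the exchange. Leaving out single arrays gave 0 to 86 enriched, the 86 without Stau1 IP 2, and 0 to 7 depleted. Without the arrays numbered 2, the 8 higher members became 2 under neqc, and 0 both with the replicate block, a paired fit that leaves 1 residual degree of freedom, and with the methods' t-test. The 6 lower members became 1 under neqc, 15 with log2 of the signal plus 50, 10 with quantile normalization, 11 with median centring, 14 with targets detected on at least 3 arrays, and 0 with the block and the t-test. Over all targets, 1097 higher and 779 lower became 160 and 88 under neqc, 1854 and 1461 with log2 of the signal plus 50, and 0 and 0 with the block and the t-test, and 1261 were lower among targets detected on at least 3 arrays. Leaving out a further array gave 0 to 13 members higher, 0 to 22 lower, 0 to 2808 targets higher and 0 to 2744 lower, with the 0 without Stau1 IP 1 or Stau1 IP 3, where the lone array is assumed to vary like the other group, and the highest counts without control IP 3. Without control IP 1, 16 members and 2000 targets were lower and 2018 targets higher. With a control array left out, the spread comes from Stau1 IP 1 and 3 alone, which correlated at 0.998 over the detected members. The 3 members called under neqc (EIF4H, EIF3F and EEF1D) were all among the 14, as were 13 of 17 under quantile normalization, 12 of 18 with median centring, 11 of 21 with log2 of the signal plus 50, 13 of 21 with the detection filter, 10 of 16 with eBayes trend and 13 of 15 when only the 4 arrays were normalized. The members' median by the labels was -0.049 in the exchange and -0.12 to -0.029 with single arrays left out, and without the arrays numbered 2 it was -0.22 with log2 of the signal plus 50. In the exchange 11 members, not 3, had all Stau1 IP arrays above, where 8.98% of all targets had. Among the members followed singly through the alternatives, differences that changed sign were EEF1A1 without the arrays numbered 2 (-0.011 under neqc, -0.011 under quantile normalization, -0.061 under median centring) and, by the labels, EIF4G2 (0.034) and EIF4EBP1 (-0.036) in the exchange. Over the 50 detected members, 10 changed sign between the labels and the exchange, beside 34.9% of detected targets. The cause was not tested. Values near the background intensity, as for EIF4E, limit what dim members can show.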
